A study of Mus musculus with 12 samples.

Results

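This account follows wild-type mouse bone marrow-derived dendritic cells (BMDCs) through 3 h of stimulation with lipopolysaccharide (LPS), a bacterial cell wall component, at 100 ng/ml. It rests on 6 of the 12 RNA-seq libraries of the study, 3 untreated (WT) and 3 LPS-stimulated (WTL), taken by the genotype and stimulation that their labels give. The cells came from C57BL/6 mice 8 to 12 weeks of age of both sexes that carry a tamoxifen-inducible Cre (CreER) in the Rosa26 locus and no loxP-flanked Ctcf allele, so both groups share CreER. Bone marrow was cultured with GM-CSF for 6 days, and the floating cells were selected on CD11c beads. The sources used here do not settle whether the wild-type cultures also received the 4-hydroxytamoxifen that removed Ctcf in the other genotype. The 3 CTCF-deficient (KO) and 3 LPS-stimulated CTCF-deficient (KOL) libraries entered the statistical fit and one comparison near the end. The study's methods name the 3 RNA-seq replicates of a condition biological. Nothing in the labels says that they came from separate animals. The p-values therefore measure the spread between these libraries, which may be partly technical.

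LPS is sensed by Tlr4 together with Cd14 and Ly96 (MD-2). The adaptor Myd88 leads from this receptor to NF-kB and AP-1, which drive inflammatory cytokine genes, and the adaptor Ticam1 (TRIF) leads to IRF3, interferon beta and, through the interferon receptor and the STAT factors, to the interferon-stimulated genes. In dendritic cells the same signal starts maturation, in which the cells take up less antigen, display more costimulatory ligands and move towards lymph nodes.

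Total expected counts, RSEM's estimates of reads per gene, were 13058792 to 14518230 in WT and 12769773 to 16586334 in WTL. Counts were scaled by the trimmed mean of M values (TMM), and a normalized count is a count set to the mean effective library size of the 12 libraries. WTL replicate 2 stood apart in ribosomal RNA, at 4.70% of its counts, against 0.145% to 0.298% in the other 5 libraries. Without that library 1722 genes were higher and 1396 lower, against 1766 and 1400 with it (12.6% and 9.99% of all genes tested). The biological coefficient of variation, the spread between replicates, was 4.91% in WT and 13.7% in WTL. All 9 dendritic cell markers (Itgax, Cd74, H2-Aa, H2-Ab1, H2-Eb1, Flt3, Zbtb46, Batf3 and Dpp4) were present in both groups at a mean TPM, a level that accounts for gene length and sums to the same total in each library, of at least 1, with a summed level of 12529 to 13305 TPM in WT and 12060.2 to 16668 in WTL. Most of this sum in WT was Cd74 (5132 TPM), H2-Aa (3519), H2-Eb1 (2163) and H2-Ab1 (1743). The other members stood at 366 (Itgax), 55.9 (Batf3), 15.5 (Zbtb46), 5.07 (Dpp4) and 3.65 (Flt3) TPM in WT. The sums of different lists therefore do not measure the share of each cell type. The summed TPM of 8 macrophage and monocyte markers was 576 to 633 TPM in WT and 297 to 374 in WTL, that of 9 granulocyte and precursor markers was 377 to 400.1 TPM in WT and 349 to 445 in WTL, and those of B, T, NK, erythroid, plasmacytoid dendritic and stromal cells each stayed at or below 7.42 TPM in every library. The 7 mast cell and basophil markers summed to 1.10 to 1.79 TPM in WT and 28.6 to 35.3 in WTL, with Hdc the 1 of them tested and higher and 3 of the 7 at 0 in all 6 libraries. Of these macrophage markers Csf1r was lower and Fcgr1 was higher in WTL, and of the granulocyte markers Mpo, Prtn3 and Camp were higher. The part of such cells in the results below was not tested, and in bulk RNA fewer cells of a type and less RNA per cell cannot be told apart. Ctcf, deleted in the other genotype, was present in every wild-type library, at 1051, 987 and 975 normalized counts in WT and 886, 817 and 745 in WTL, against means of 549 in KO and 539.9 in KOL. Its log2 fold change in WTL against WT was -0.30 (standard error 0.08 and edgeR adjusted p = 0.0032), under 2-fold.

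In WTL against WT, 1766 of 14008 genes tested were higher (12.6%) and 1400 were lower (9.99%) at a fold above 2 and an adjusted p under 0.05 (edgeR quasi-likelihood test, Benjamini-Hochberg adjustment). The rises reached further than the falls. Of the higher genes, 366 exceeded 8-fold and 37 exceeded 64-fold. Of the lower genes, 44 exceeded 8-fold and 4 exceeded 32-fold. The higher genes held 6.83% ± 0.04 (SD, n = 3) of all TPM in WT and 22.4% ± 3.7 in WTL, with 20.48%, 26.63% and 20.09% in its 3 libraries, and the lower genes held 1.71% ± 0.01 and 0.451% ± 0.027. The higher genes include the ribosomal RNA gene CT010467.1 and AY036118, which overlaps it and is annotated as a lincRNA, and without both the shares were 6.60% ± 0.061 in WT and 20.14% ± 0.44 in WTL. Gm26917 and Gm42418, which lie beside these genes, were also higher and were kept in the shares. CT010467.1 was the top gene by TPM in WTL replicate 2, the library that stood apart in ribosomal RNA, and in no other library. Protein-coding genes made up 1424 of the higher and 1192 of the lower genes, and lincRNAs 63 and 45. The split between rises and falls depended on the scaling. On TPM the median log2 fold change of all genes was -0.44 instead of -0.02, and limma on log2(TPM + 1) called 770 genes higher and 1975 lower. With TPM scaled to a common median, it called 1308 higher and 531 lower.

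**Figure D1:**
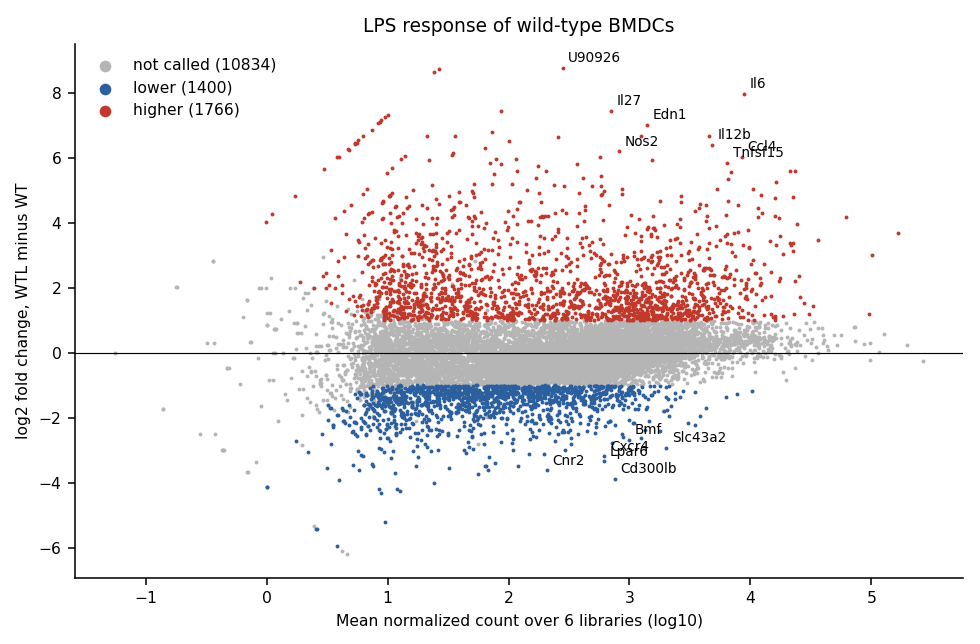
Log2 fold change in WTL against WT (y axis) over the log10 mean normalized count of the 6 libraries (x axis) for each gene with a count in them. Red points are the 1766 higher genes and blue points the 1400 lower genes at a fold above 2 and an adjusted p under 0.05, and the rises reach further from 0 than the falls.

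The 15 largest rises among genes with a mean of at least 100 normalized counts and no overlap between the groups were those of U90926, Il6, Il27, Edn1, Tgtp1, Ifi205, Cxcl11, Il12a, Il12b, Nos2, Ccl4, Col5a3, Dll4, Ch25h and Tnfsf15. Of these genes 7 encode cytokines or chemokines. Il6 (ENSMUSG00000025746, mm10 chr5:30013114-30019981, plus strand), the acute-phase and fever cytokine, stood at 60.6, 80.5 and 70.01 normalized counts in WT and 21202, 16185 and 15792 in WTL. All 3 WTL libraries lay above the 3 WT libraries, with a log2 fold change of 7.97 (standard error 0.20 and edgeR adjusted p = 4.5e-13). Edn1 (ENSMUSG00000021367, mm10 chr13:42301476-42307990, plus strand), the precursor of the vasoconstrictor peptide endothelin-1, went from 23.9, 21 and 19 to 3145, 2710.3 and 2458 normalized counts, a log2 fold change of 7.02 (standard error 0.14 and edgeR adjusted p = 3.4e-14). U90926 (ENSMUSG00000029409, mm10 chr5:92209893-92215408, minus strand) had 4 counts in WT in all and 1423 in WTL, a ratio of 469.5 with an exact 95% counting interval of 183 to 1726. Col5a3, a fibrillar collagen chain, had 17.5, 16.8 and 17.3 normalized counts in WT and 1256, 1131 and 954 in WTL. Dll4, a Notch ligand, had 4.59, 4.19 and 1.73 in WT and 198, 219 and 263 in WTL. Tgtp1, an interferon-induced GTPase, has the near-identical neighbour Tgtp2, so its 24.1, 17.6 and 30.1 normalized counts in WT and 2619, 2315 and 2414 in WTL are uncertain in how reads were divided between the pair.

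The 15 largest falls by the same rule were those of Cd300lb, Cnr2, Neurl1b, Lpar6, Cxcr4, C130050O18Rik, Foxred2, Fam78a, Tmem86a, Slc43a2, Lpin1, Il6ra, Slc40a1, Kcnk13 and Bmf. They included receptors, membrane transporters and a cell-death gene. Cd300lb (ENSMUSG00000063193, mm10 chr11:114922781-114934386, minus strand), an activating receptor of the CD300 family, fell from 1328, 1462 and 1439 to 102, 88.8 and 97.8 normalized counts, a log2 fold change of -3.87 (standard error 0.16 and edgeR adjusted p = 3.8e-11). Slc43a2 (ENSMUSG00000038178, mm10 chr11:75531694-75577575, plus strand), a transporter of large neutral amino acids, fell from 3511, 3601 and 3556 to 426, 484 and 489.5. The 3 WTL values lay close together and below all WT values, and the log2 fold change was -2.93 (standard error 0.08 and edgeR adjusted p = 7e-13). Slc40a1, the iron exporter ferroportin, had 188, 169 and 198 normalized counts in WT and 18.9, 19.5 and 41.5 in WTL, with WTL replicate 3 above the other 2 WTL libraries. Lpin1, a phosphatidate phosphatase, had 625, 539 and 570.4 in WT and 79.6, 80.2 and 86.1 in WTL. Neurl1b, a ubiquitin ligase of the Notch ligand pathway, had 207, 226 and 229 in WT and 18.9, 20.6 and 19.1 in WTL.

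**Figure D2:**
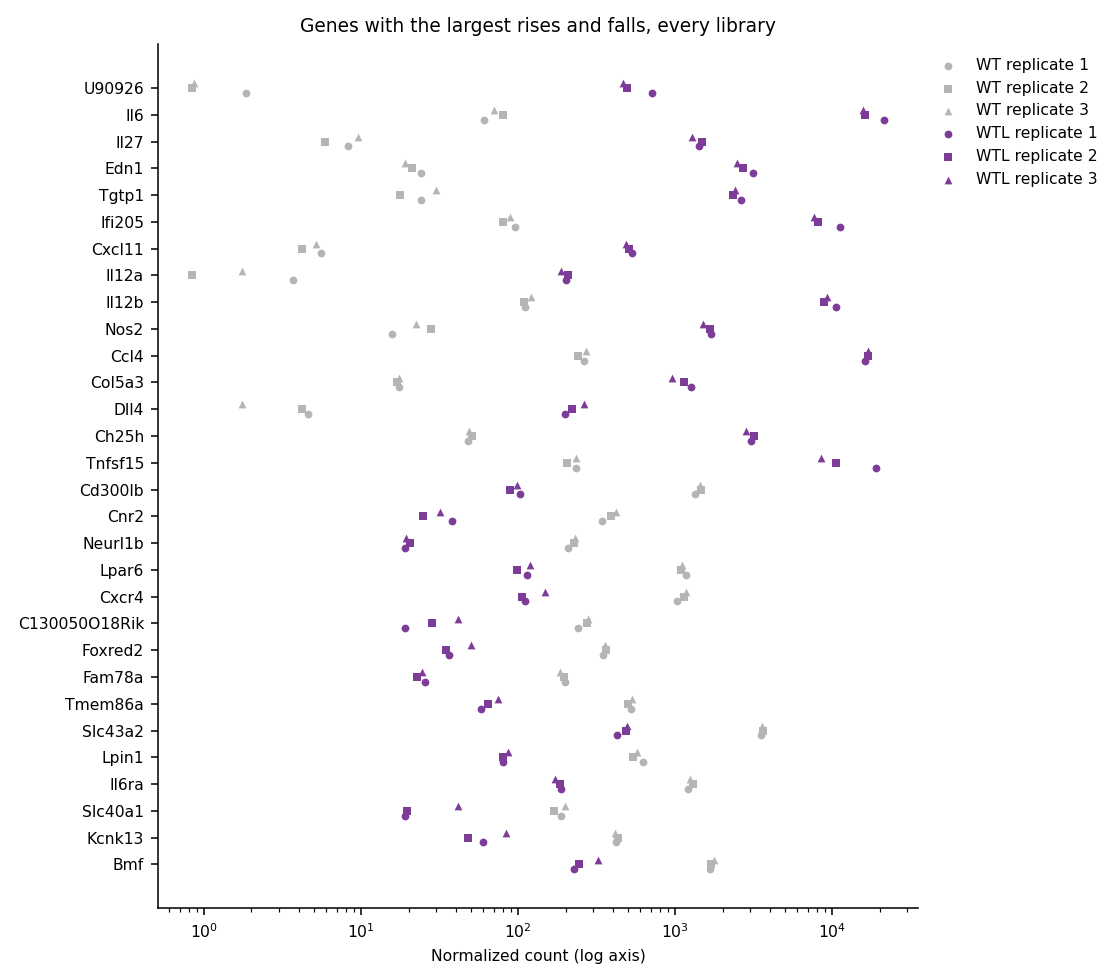
Normalized count on a log axis (x) of the 15 largest rises and 15 largest falls (y) in each WT library (grey) and WTL library (purple), with the replicate given by the marker. In every gene the 3 WTL libraries lie on one side of the 3 WT libraries, which the rule that chose these genes required. In Slc40a1 the WTL points are at 18.9, 19.5 and 41.5.

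Promoters of 300 bases, from 250 before to 50 after the gene start, were read from RefSeq (GRCm38.p6) for the tested genes. The interferon-stimulated response element (ISRE), bound by IRF and STAT complexes, was searched as GAAANNGAAA, and the kB site of NF-kB by its consensus, on both strands. The promoters of Il6, Dll4, Edn1 and Ifi205, and of Cxcl10 and Gbp5, whose values follow, are shown because each gene rose by more than 16-fold and each window holds a match to 1 or both of these motifs. Capitals mark the matches, and each window is written 5′ to 3′ on the strand of its gene.
Il6: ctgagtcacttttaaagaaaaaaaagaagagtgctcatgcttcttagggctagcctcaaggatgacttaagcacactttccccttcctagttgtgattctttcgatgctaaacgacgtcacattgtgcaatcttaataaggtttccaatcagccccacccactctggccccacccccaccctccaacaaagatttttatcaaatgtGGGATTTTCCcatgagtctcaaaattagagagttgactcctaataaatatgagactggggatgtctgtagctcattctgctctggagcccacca
Dll4: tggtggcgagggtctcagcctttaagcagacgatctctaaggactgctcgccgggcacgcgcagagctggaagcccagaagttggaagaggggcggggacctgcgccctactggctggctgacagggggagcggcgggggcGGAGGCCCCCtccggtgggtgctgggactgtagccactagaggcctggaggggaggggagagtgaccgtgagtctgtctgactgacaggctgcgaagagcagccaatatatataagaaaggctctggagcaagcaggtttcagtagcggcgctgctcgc
Edn1: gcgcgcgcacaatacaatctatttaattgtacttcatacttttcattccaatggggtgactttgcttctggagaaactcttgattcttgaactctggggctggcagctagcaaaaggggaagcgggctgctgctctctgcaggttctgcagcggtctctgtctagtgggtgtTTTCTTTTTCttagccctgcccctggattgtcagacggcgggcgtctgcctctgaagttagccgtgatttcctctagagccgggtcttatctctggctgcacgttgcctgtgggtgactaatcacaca
Ifi205: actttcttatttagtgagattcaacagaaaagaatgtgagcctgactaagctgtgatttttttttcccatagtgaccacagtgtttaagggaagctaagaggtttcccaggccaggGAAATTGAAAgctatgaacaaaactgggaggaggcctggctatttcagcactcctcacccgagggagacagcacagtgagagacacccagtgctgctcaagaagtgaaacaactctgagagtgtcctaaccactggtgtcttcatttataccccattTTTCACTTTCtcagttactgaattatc
Cxcl10: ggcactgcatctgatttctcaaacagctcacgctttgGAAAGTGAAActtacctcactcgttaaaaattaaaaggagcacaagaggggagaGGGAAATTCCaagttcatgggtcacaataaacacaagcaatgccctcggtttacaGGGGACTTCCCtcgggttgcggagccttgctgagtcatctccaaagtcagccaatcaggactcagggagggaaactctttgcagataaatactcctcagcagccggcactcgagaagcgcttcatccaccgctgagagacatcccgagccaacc
Gbp5: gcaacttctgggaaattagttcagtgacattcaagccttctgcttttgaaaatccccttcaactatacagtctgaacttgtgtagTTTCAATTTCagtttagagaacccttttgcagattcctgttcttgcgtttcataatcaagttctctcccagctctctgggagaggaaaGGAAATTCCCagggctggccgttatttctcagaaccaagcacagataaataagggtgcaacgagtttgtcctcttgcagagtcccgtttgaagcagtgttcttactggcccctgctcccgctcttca

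These windows lie on GRCm38.p6 at chr5:30012864-30013163 (plus strand, Il6), chr2:119325534-119325833 (plus strand, Dll4), chr13:42301226-42301525 (plus strand, Edn1), chr1:174031706-174032005 (minus strand, Ifi205), chr5:92348840-92349139 (minus strand, Cxcl10), chr3:142496684-142496983 (plus strand, Gbp5). The kB match began 44 bases before the gene start in Il6, 109 in Dll4 and 77 in Gbp5, and Cxcl10 held 3 kB matches, 2 of which start 1 base apart and overlap. The ISRE match began 78 bases before the gene start in Edn1, 213 in Cxcl10 and 165 in Gbp5, and Ifi205 held 2, which began 134 bases before and 23 after the start.

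Across the tested protein-coding genes outside chromosomes 18, M and Y, 9707 of 11844 (82.0%) had a promoter in the RefSeq table. The ISRE was found in 26 of 118 promoters of genes that rose by more than 16-fold (22.03%), in 327 of all 9707 (3.37%) and in 16 of 955 of the lower genes (1.68%). The kB consensus was found in 12.7%, 7.93% and 6.60% of the same sets. The AP-1 letters TGANTCA were found in 18.6%, 5.12% and 4.82%, and TATAAA in 23.7%, 6.91% and 6.28%. The E-box CACGTG went the other way, with 4.24%, 10.3% and 11.6%. Promoters of genes that rose by more than 16-fold held a median of 6.5 CpG dinucleotides, against 21 in all and 19 in the lower genes. Their median GC content was 51.67%, against 60.67% in all and 61% in the lower genes. The part of this base composition in the motif shares was not tested. For all higher genes the check is void, because 78.75% of them had a promoter in the table, under the 80% set for such a comparison. These shares are descriptions of letters in a window and were not tested.

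Higher genes often lay beside each other on the chromosome. Among protein-coding genes in the order of their start sites, 582 of 1424 higher genes (40.9%) had a higher gene as a direct neighbour, against 2556 of all 12136 (21.1%). For lower genes, 314 of 1192 (26.3%) had a lower neighbour, against 18.5% of all. The longest run held 15 higher genes, of which 12 belong to the Ifi200 family of interferon-inducible DNA sensors, on mm10 chr1:173468485-174248450. A run of 11 on chr11:48861968-49135387 held Irgm1, Tgtp1, Tgtp2 and Ifi47 of the interferon-inducible GTPases. Runs of 7 held the Slfn genes (chr11:82951349-83215154) and the Ms4a genes (chr19:11375523-11604849). A run of 6 held the Ifit genes (chr19:34550694-34650009), and a run of 4 held the peptide transporters Tap1 and Tap2 with the immunoproteasome genes Psmb8 and Psmb9 (chr17:34181987-34216321). Members of these families share sequence, so reads could have been divided among them, and neighbours that overlap could share reads.

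Gene lists by function were then counted. The lists were written with earlier results of these data known, so the counts describe the listed genes and are no independent test. Each count is read beside the 12.6% of all genes that were higher, the 9.99% that were lower and the median log2 fold change of -0.02 over all genes. Values in each library are normalized counts in the order of replicates 1 to 3, and in every gene given so below the 3 WTL libraries lay on one side of the 3 WT libraries, which the rule that chose most of these genes required. With TPM on a common median, 9 genes of modest fall named below (Uhrf1, Mcm2, Pold1, Nr2c2, Steap3, Cat, Ppat, Acsl3 and Egr2) were under the 2-fold cutoff, with log2 fold changes from -0.98 to -0.76. TPM, a level per transcript length, is used where levels are compared between genes.

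Transcription factors included 38 higher and 12 lower genes of 109 tested. Of the NF-kB subunits and IkB proteins, 8 of 11 were higher, with a median log2 fold change of 1.65. The most abundant of them was Nfkbia, the inhibitor IkB-alpha, which NF-kB itself induces, and it went from 3365, 3665 and 3308 to 15779, 19928 and 20921 normalized counts. Nfkbiz, an atypical IkB that acts in the nucleus and is needed for Il6 expression, went from 839.6, 803 and 741 to 8347, 8034 and 8381, a log2 fold change of 3.38 (standard error 0.07 and edgeR adjusted p = 9.4e-14). Nfkb1, the p105/p50 subunit, had a log2 fold change of 1.66 and Nfkbie of 1.74.

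Of the IRF and STAT factors, 10 of 15 were higher, with a median log2 fold change of 1.36. In TPM the leading member was Irf5 in WT (224) and Irf7 in WTL, where Irf7 stood at 308 TPM. Irf7, which amplifies type I interferon, had 325, 339.6 and 317 normalized counts in WT and 6804, 7469 and 7301 in WTL, a log2 fold change of 4.46 (standard error 0.08 and edgeR adjusted p = 1.2e-14). Stat5a, a factor downstream of GM-CSF, went from 1597, 1848 and 1698 to 9344, 11562 and 11613, with WTL replicate 1 below the other WTL libraries. Stat2 and Irf1 had log2 fold changes of 2.35 and 2.16.

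AP-1, EGR and other early-response factors went both ways, with 10 higher and 3 lower of 25. Batf2 had 39.5, 27.7 and 42.4 normalized counts in WT and 511, 477 and 447 in WTL, a log2 fold change of 3.71 (standard error 0.13 and edgeR adjusted p = 7.3e-12). Nr4a3, Batf and Egr1 had log2 fold changes of 2.26, 2.16 and 1.80. The 3 lower genes were Egr3, Egr2 and Myc, which drives cell growth. Egr3 fell from 153, 172 and 143 to 32.4, 34.7 and 47.8, Egr2 from 1769, 1719 and 1666 to 786, 731 and 987 and Myc from 157, 158 and 141 to 48.6, 71.5 and 69.1 normalized counts. Members of the EGR family thus differed in direction.

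Haematopoietic lineage factors were 10 higher and 6 lower of 40, with a median log2 fold change of 0.45 that was -0.12 on log2(TPM + 1). Tcf4, which directs plasmacytoid dendritic cells, went from 332, 324 and 358 to 2007, 1896 and 1859 normalized counts. Maf went from 76.7, 81.8 and 89 to 430.5, 395 and 328. Id3, Cebpa and Fli1 had log2 fold changes of -2.04, -1.69 and -1.44, and Zeb1 and Ikzf2 of 1.96 and 1.56, the latter 0.38 on log2(TPM + 1). Of 18 nuclear receptors, 3 were lower. They were Nr1d1 of the circadian clock (-1.65), Rxra, the common partner of many nuclear receptors (-1.32), and Nr2c2 (-1.04), each as a log2 fold change.

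Secreted proteins showed 73 higher and 2 lower genes of 132 tested. Their share of all TPM was 5.26% ± 0.076 in WT and 8.38% ± 0.77 in WTL (SD, n = 3). The difference of 3.12 percentage points between the means had an exact two-sided permutation p of 0.1, the smallest that 3 against 3 libraries can give.

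Of 37 cytokines tested, 29 were higher and 1 was lower, and the median log2 fold change was 2.74. The cytokine share of TPM was 0.114% ± 0.0034 in WT and 0.932% ± 0.16 in WTL (SD, n = 3). The most abundant cytokine was the antagonist Il1rn in WT, at 277 TPM, and Il1b in WTL, at 2686 TPM, where Il1rn stood at 1492. The IL-12 family subunit genes Il12b, Il12a and Il27 were among the largest rises. Il12b had 110.2, 109 and 120.1 normalized counts in WT and 10495, 8897 and 9294 in WTL, a log2 fold change of 6.40 (standard error 0.16 and edgeR adjusted p = 4.4e-13). Il12a had 3.67, 0.839 and 1.73 in WT and 201, 207 and 188 in WTL, and Il27 had 8.27, 5.87 and 9.51 in WT and 1420.1, 1469 and 1282 in WTL. Named after their values were seen, Tnf went from 2457, 2456 and 2463 to 28482, 25434 and 25282 normalized counts, Ifnb1 from 1.84, 3.35 and 4.32 to 136, 148 and 162, and the anti-inflammatory Il10 from 2.76, 4.19 and 1.73 to 167, 164 and 179. Tnfsf15, a ligand of death receptor 3, varied among WTL libraries, with 231, 205 and 232 normalized counts in WT and 18912, 10555 and 8522 in WTL. Il16, a ligand of CD4, was the 1 lower cytokine, with 269, 300.3 and 324 in WT and 63.5, 54.2 and 56.5 in WTL.

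Of 24 chemokines tested, 16 were higher and 1 was lower, with a median log2 fold change of 2.54. Their share of TPM was 1.43% ± 0.033 in WT and 4.69% ± 0.35 in WTL (SD, n = 3), and this gain in mean share was the largest among the 34 lists. Ccl17, which attracts T cells through CCR4, was the most abundant in both groups, at a mean of 5965 TPM in WT and 11318 in WTL. Cxcl10, a CXCR3 ligand, had 787, 851 and 930.0 normalized counts in WT and 42638, 41953 and 39613 in WTL, a log2 fold change of 5.60 (standard error 0.09 and edgeR adjusted p = 6.8e-15). The other CXCR3 ligands rose with it, Cxcl11 from 5.51, 4.19 and 5.19 to 530.0, 507 and 484 and Cxcl9 from 15.6, 26.8 and 38 to 1009, 869 and 962. Ccl4, an inflammatory chemokine, went from 261, 239.8 and 271 to 16195, 16819 and 16909. The platelet chemokine gene Ppbp fell from 345, 321 and 337 to 98.5, 99.7 and 155, and the summed megakaryocyte markers were 142 to 150.0 TPM in WT and 129.7 to 156 in WTL. Most of that sum was a single gene, Pf4, at a mean of 146.6 TPM in WT and 138.7 in WTL.

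Of 18 growth factors, 8 were higher. Inhba, the activin A subunit, had 339, 290.2 and 309 normalized counts in WT and 17477, 11221 and 9231 in WTL, with replicate 1 the highest and a log2 fold change of 5.34 (standard error 0.21 and edgeR adjusted p = 3.6e-11). Ereg, an EGF receptor ligand, and Pdgfb had log2 fold changes of 2.88 and 2.05. Of 33 matrix proteins, proteases and inhibitors, 14 were higher, with a median log2 fold change of 0.52 that was -0.02 on log2(TPM + 1). Plat, the tissue plasminogen activator, went from 10.1, 17.6 and 10.4 to 704, 679 and 769.8, and the plasminogen activator inhibitor Serpinb2 from 183, 193 and 175 to 3269.6, 2523 and 2211. Mmp13, a collagenase, and Adamts4, an aggrecanase, had log2 fold changes of 4.58 and 4.91. The most abundant gene of that list, Lgals3, stood at 3456 TPM in WT and 3255 in WTL.

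Complement and innate effector proteins were 6 higher of 20, with a median log2 fold change of 0.18 that was -0.30 on log2(TPM + 1). The share of TPM of the list was 2.74% ± 0.11 in WT and 1.82% ± 0.3 in WTL (SD, n = 3). Most of it was lysozyme (Lyz2), which was not called and stood at 25371 TPM in WT and 14969.6 in WTL. Ptx3, a soluble pattern recognition protein, had 368, 347 and 335 normalized counts in WT and 8058, 8578 and 8114 in WTL, a log2 fold change of 4.56 (standard error 0.13 and edgeR adjusted p = 1.5e-12). Saa3, an acute-phase protein, Lcn2, which binds bacterial siderophores, and the protease inhibitor Slpi had log2 fold changes of 3.23, 2.95 and 2.41.

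**Figure D3:**
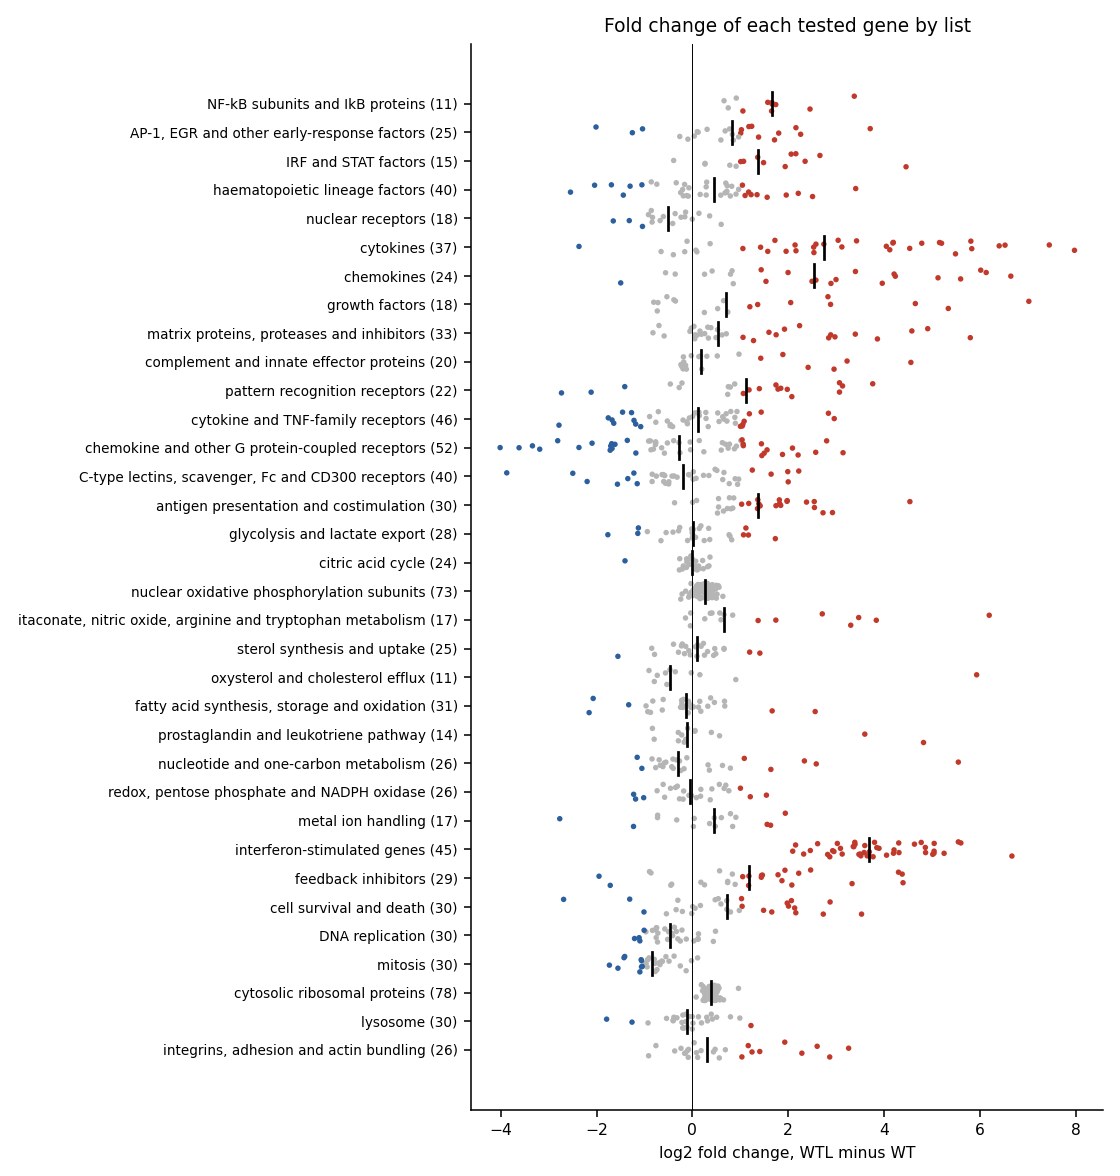
Log2 fold change in WTL against WT (x axis) of each tested gene in the 34 lists (y axis, number tested in parentheses). Red and blue points are genes called higher and lower, grey points are not called, and black bars are medians, which run from -0.85 for mitosis to 3.69 for interferon-stimulated genes. The 10 medians from 0.01 to 0.52 were below 0 on log2(TPM + 1).

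Receptors went both ways, with 56 higher and 33 lower genes of 190 tested. Among the parts that sense LPS, the signalling chain Tlr4 went down while its partners went up. Tlr4 (ENSMUSG00000039005, mm10 chr4:66827584-66930284, plus strand) had 905, 775 and 978 normalized counts in WT and 432, 303 and 271 in WTL. The groups did not overlap, and the log2 fold change was -1.41 (standard error 0.17 and edgeR adjusted p = 4.4e-06). Cd14, which hands LPS to the complex, had 2462, 2640.0 and 2522 in WT and 10220.1, 9894 and 9953 in WTL, a log2 fold change of 1.98 (standard error 0.07 and edgeR adjusted p = 1.1e-11). Ly96, the chain of the complex that binds LPS, had 181, 179 and 182 in WT and 425, 364 and 344 in WTL, a log2 fold change of 1.06 (standard error 0.11 and edgeR adjusted p = 1.2e-06). It was close to the 2-fold cutoff, and it was under it at 0.54 on log2(TPM + 1), at 0.97 without WTL replicate 1 and at 0.98 to 0.99 without any 1 WT replicate. Of the adaptors, Myd88 went from 1614, 1657 and 1635 to 5022, 5382 and 5239.7 normalized counts, a log2 fold change of 1.67 (standard error 0.06 and edgeR adjusted p = 1.4e-11). Ticam1 had 403, 409 and 394 in WT and 456, 497 and 484 in WTL, a log2 fold change of 0.25 that stayed under 2-fold and was -0.26 on log2(TPM + 1).

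Of 22 pattern recognition receptors, 12 were higher and 3 were lower, with a median log2 fold change of 1.12. The 3 cytosolic RNA sensors of the list were all higher. Ifih1 (MDA5) had 1325, 1275 and 1327 normalized counts in WT and 21039, 16637 and 15583 in WTL, a log2 fold change of 3.76 (standard error 0.12 and edgeR adjusted p = 4.5e-12). Ddx58 (RIG-I) and its relative Dhx58 (LGP2) had log2 fold changes of 3.07 and 3.13, and Tlr3, the endosomal receptor for double-stranded RNA, of 3.07. The lower genes were Tlr4, Tlr11 and Tlr12, the latter both receptors for a protozoan profilin. Tlr11 fell from 88.2, 73 and 78.7 to 13.5, 14.1 and 8.51 normalized counts and Tlr12 from 19.3, 18.4 and 18.1 to 2.70, 6.50 and 3.19.

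Cytokine and TNF-family receptors were 8 higher and 9 lower of 46, with a median log2 fold change of 0.12 that was -0.32 on log2(TPM + 1). Both chains of the IL-6 receptor were lower where Il6 itself was higher. Il6ra, the binding chain, fell from 1207, 1294 and 1239 to 187, 185 and 171 normalized counts, a log2 fold change of -2.78 (standard error 0.08 and edgeR adjusted p = 1.5e-12). Il6st (gp130), the signalling chain, fell from 3047, 3136 and 3214 to 952, 916 and 917, a log2 fold change of -1.75 (standard error 0.12 and edgeR adjusted p = 8.3e-09). On the other side, Il15ra, which presents IL-15 to lymphocytes, rose from 347, 333 and 359.5 to 2554, 2707 and 2823. Il2ra (CD25) rose from 228, 224 and 212 to 1544, 1474 and 1725. Il18r1 and Tnfrsf21 had log2 fold changes of -1.64 and -1.68, and Il1rap and Tnfrsf13b of 1.44 and 1.19, which were 0.80 and 0.58 on log2(TPM + 1). The most abundant gene of the list was Csf2rb, a chain of the GM-CSF receptor, at 1129 TPM in WT and 412.8 in WTL.

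Chemokine and other G protein-coupled receptors were 13 higher and 14 lower of 52. Cxcr4, the receptor of CXCL12, fell from 1029.7, 1138 and 1163 to 111, 105 and 149 normalized counts, a log2 fold change of -3.18 (standard error 0.11 and edgeR adjusted p = 5.6e-12). Cx3cr1 fell from 364, 364 and 321 to 83.6, 80.2 and 81.9, the cannabinoid receptor Cnr2 from 342, 390.0 and 418 to 37.8, 24.9 and 31.9, and the lysophosphatidic acid receptor Lpar6 from 1163, 1088 and 1095 to 114, 97.5 and 119. The adenosine receptor Adora2a rose from 228, 248 and 282 to 1953, 2313 and 2428, a log2 fold change of 3.14 (standard error 0.12 and edgeR adjusted p = 1.3e-11). Gpr84, a receptor of medium-chain fatty acids, Ccrl2 and Hcar2 had log2 fold changes of 2.57, 2.21 and 2.09. Ccr7, which guides dendritic cells to lymph nodes, was the most abundant of the list in both groups, at 319 TPM in WT and 602 in WTL.

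Among C-type lectins, scavenger, Fc and CD300 receptors, 5 were higher and 7 lower of 40. Related receptors went opposite ways. Clec4e (Mincle), which senses mycobacterial glycolipid, rose from 6203, 5880.4 and 6115 to 35208, 25833 and 23683 normalized counts, whereas Clec7a (Dectin-1), which senses beta-glucan, fell from 9652, 8754 and 8859.8 to 3857, 3385 and 3476, a log2 fold change of -1.35 (standard error 0.08 and edgeR adjusted p = 2.5e-09). The scavenger receptor Marco rose from 1720.5, 1861 and 1684 to 7532, 6947 and 6567, and Stab1, another scavenger receptor, fell from 476, 485 and 455 to 169.9, 139.7 and 170.1. The call of Stab1 was lost on log2(TPM + 1), at -0.95, and with a common median, at -0.44 (limma adjusted p = 0.16). Besides Cd300lb, the inhibitory Cd300a fell from 1422, 1502 and 1473 to 281, 242 and 259. Fcgr1, the high-affinity IgG receptor, and Clec2d had log2 fold changes of 1.99 and 1.64.

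Of 30 genes of antigen presentation and costimulation, 18 were higher, with a median log2 fold change of 1.36. Cd40, which receives help from T cells, rose from 658, 683 and 627 to 14982, 15479.7 and 15250.3 normalized counts, a log2 fold change of 4.54 (standard error 0.07 and edgeR adjusted p = 6.8e-15). The CD28 ligands Cd80 and Cd86 rose from 1099, 1056 and 1047 to 7642, 7684 and 8939 and from 1173, 1141 and 1223 to 6494, 6571 and 7594. Slamf1 had a log2 fold change of 2.72. Cd74, the class II invariant chain and most abundant gene of the list, stood at 5132 TPM in WT and 6156 in WTL.

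Metabolic genes had 29 higher (9.93%) and 15 lower (5.14%) of 292 tested, below the 12.6% and 9.99% of all genes. Their share of TPM was 7.89% ± 0.21 in WT and 7.04% ± 0.43 in WTL (SD, n = 3). The difference of -0.85 percentage points had an exact permutation p of 0.1. It was -0.22 (exact permutation p = 0.3) as a share of normalized counts. Without the most abundant gene of the group it was -0.40 (exact permutation p = 0.2). The calls were spread over single steps of the pathways.

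In glycolysis and lactate export, 4 genes were higher and 3 lower of 28, with a median log2 fold change of 0.01 that was -0.47 on log2(TPM + 1). Genes of the phosphofructokinase step went both ways. Pfkfb3 and Pfkp rose from 1788, 1868 and 1844 to 4045, 4038 and 4288 and from 5421, 5511 and 5458 to 12360.5, 11818 and 11356 normalized counts, while Pfkfb2 and Pfkfb4 fell from 194, 160.2 and 203 to 71.5, 60.7 and 33.6 and from 721, 708 and 745 to 367, 315 and 316. Slc2a6, a sugar transporter of the GLUT family, had a log2 fold change of 1.73 (standard error 0.07 and edgeR adjusted p = 2.3e-11), and hexokinase 2 (Hk2) of 1.07 (standard error 0.12 and edgeR adjusted p = 3.5e-06). On log2(TPM + 1) the rises of Pfkfb3, Pfkp and Hk2 were under the 2-fold cutoff, at 0.56, 0.47 and 0.73. Gapdh, the most abundant of the list, stood at 3424 TPM in WT and 2613 in WTL.

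Of 24 genes on the citric acid cycle list, 1 was called, and it is not a step of the mitochondrial cycle itself. Idh1, a cytosolic enzyme that makes NADPH, fell from 3059.8, 3013 and 3036 to 1132, 1124 and 1181 normalized counts, a log2 fold change of -1.41 (standard error 0.06 and edgeR adjusted p = 1.3e-10). Nuclear genes of oxidative phosphorylation moved within 2-fold. By edgeR and by DESeq2, 0 of 73 were called, while 41 were higher and 1 lower at an unadjusted p under 0.05 in both, beside 32% higher and 32.5% lower of all genes by edgeR. At an adjusted p under 0.05 and any fold 34 were higher and 1 lower. The median log2 fold change was 0.27 and that on log2(TPM + 1) was -0.25.

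Itaconate, nitric oxide, arginine and tryptophan metabolism had 7 higher genes of 17. Acod1, which makes itaconate from a citric acid cycle intermediate, rose from 5976, 6006 and 5999.9 to 77906, 64476 and 56727 normalized counts, a log2 fold change of 3.47 (standard error 0.11 and edgeR adjusted p = 4.9e-12), and became the most abundant of the list at 1841 TPM. Nos2, the inducible nitric oxide synthase, rose from 15.6, 27.7 and 22.5 to 1694, 1675 and 1501, a log2 fold change of 6.19 (standard error 0.16 and edgeR adjusted p = 4.8e-13). Slc7a2, an importer of the arginine that Nos2 uses, rose from 3989, 3951 and 3960.2 to 51416, 36409 and 29657, with replicate 1 the highest. Ido2 rose from 5.51, 10.1 and 8.64 to 117, 118 and 118.

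In lipid metabolism, Ch25h, which makes 25-hydroxycholesterol, was the 1 called of 11 oxysterol and cholesterol efflux genes. It rose from 47.8, 51 and 48.4 to 3049, 3155 and 2803 normalized counts, a log2 fold change of 5.93 (standard error 0.10 and edgeR adjusted p = 8.5e-15). Of 25 sterol genes, 2 were higher and 1 lower. They were Idi1 (1.41) and Pmvk (1.19) of the mevalonate branch and Dhcr7 (-1.55) of the last step of cholesterol synthesis, as log2 fold changes. On log2(TPM + 1) Idi1 and Pmvk were under 2-fold, at 0.72 and 0.62. Of 31 fatty acid genes, 2 were higher and 3 lower. The desaturases Scd2 and Fads1 fell from 5071, 4954 and 4967 to 1071, 1093 and 1202 and from 808, 749.7 and 713 to 152, 191 and 195. The acyl-CoA synthetases differed, with Acsl1 at a log2 fold change of 2.56 and Acsl3 at -1.33, and the lipid droplet gene Hilpda was at 1.66. Of 14 genes of the prostaglandin and leukotriene pathway, 2 were higher, and both act in the synthesis of prostaglandin E2. Ptgs2 (COX-2) rose from 181, 191 and 179 to 6351, 4702 and 4548, a log2 fold change of 4.82 (standard error 0.14 and edgeR adjusted p = 9.4e-13), and Ptges from 194, 199.6 and 174 to 2290.0, 2338 and 2237, a log2 fold change of 3.60 (standard error 0.08 and edgeR adjusted p = 9.4e-14).

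Nucleotide and one-carbon metabolism had 5 higher and 2 lower genes of 26. Cmpk2, a mitochondrial nucleotide kinase that is also interferon-induced, rose from 292, 272 and 299.9 to 14142, 13671 and 12589 normalized counts. The salvage and breakdown enzymes Pnp, Upp1 and Samhd1 had log2 fold changes of 2.58, 2.34 and 1.64. The lower genes were Rrm2, which makes deoxynucleotides (-1.15), and Ppat, the first enzyme of purine synthesis (-1.05). In redox genes, 3 were higher and 3 lower of 26. Sod2, the mitochondrial superoxide dismutase, rose from 3086, 2935 and 2624 to 8238, 8625 and 8349, and Slc7a11, the cystine importer, and Prdx5 had log2 fold changes of 1.21 and 1.00, which were 0.69 and 0.38 on log2(TPM + 1). Both subunits of the enzyme that starts glutathione synthesis fell, Gclc (-1.23) and Gclm (-1.19), as did catalase, Cat (-1.02). In metal handling, the zinc and iron importer Slc39a14 (1.94), the zinc transporter Slc30a4 (1.63) and the metallothionein Mt2 (1.56) were higher, and Slc40a1 and the ferric reductase Steap3 (-1.23) were lower.

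**Figure D4:**
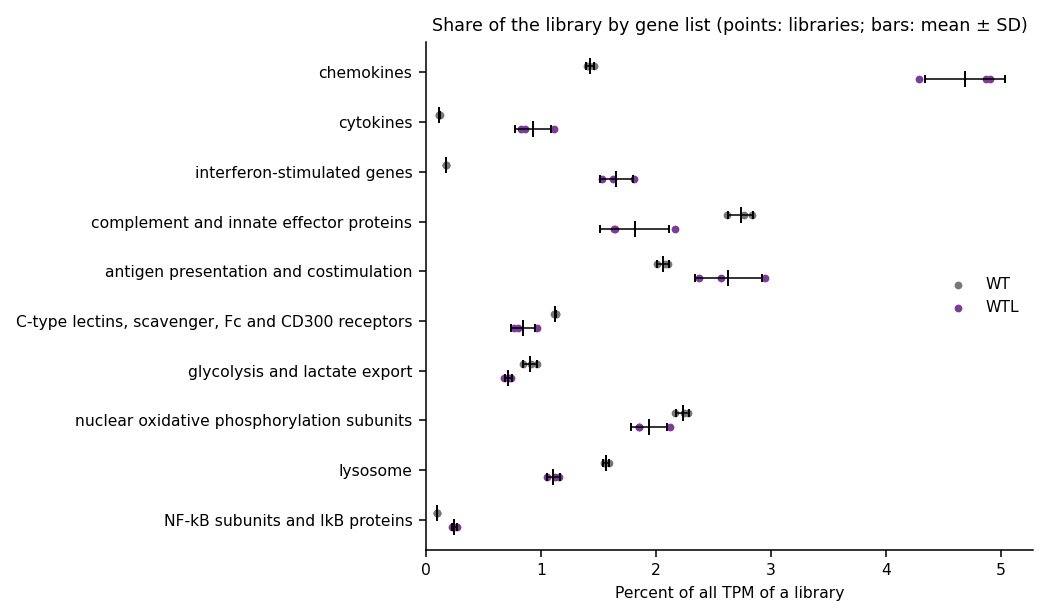
Percent of all TPM of a library (x axis) held by 10 gene lists (y axis) in WT (grey) and WTL (purple), with a point for each library and the mean ± SD over 3. Chemokines went from 1.43% to 4.69% and interferon-stimulated genes from 0.172% to 1.66%, while lysosomal genes went from 1.56% to 1.11%.

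All 45 interferon-stimulated genes were higher, with log2 fold changes from 2.09 to 6.67 and a median of 3.69. As this list was written with earlier results of these data known, the full count is a description only. Their share of TPM was 0.172% ± 0.0015 in WT and 1.66% ± 0.14 in WTL (SD, n = 3). Gbp5, an interferon-induced GTPase that acts on bacteria, had 602, 623 and 616 normalized counts in WT and 22808, 19340.4 and 18511 in WTL. Isg15, a ubiquitin-like modifier, became the most abundant of them, at 162.8 TPM in WT and 3291 in WTL. Rsad2 (viperin), which blocks viral RNA synthesis, had 912, 948 and 964 normalized counts in WT and 52375, 44488 and 40186 in WTL, a log2 fold change of 5.60 (standard error 0.12 and edgeR adjusted p = 6.1e-14). Ifit1, which binds viral RNA, had 812, 778 and 919 in WT and 38173, 29947 and 27410.3 in WTL, a log2 fold change of 5.25 (standard error 0.14 and edgeR adjusted p = 5.7e-13). Ifi205 had 95.6, 80.2 and 89 in WT and 11225, 8068 and 7614 in WTL. In Rsad2, Ifit1 and Ifi205 WTL replicate 1 was the highest, and over all 1766 higher genes it was the highest WTL library in 41.4% and replicate 2 in 22.7%, near the 39.7% and 23.9% among genes that were not called.

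Of 29 feedback inhibitors, 16 were higher and 2 lower, with a median log2 fold change of 1.17. Socs3, which limits IL-6 signalling, had 335, 309 and 322 normalized counts in WT and 6384, 6957 and 6726 in WTL, a log2 fold change of 4.38 (standard error 0.08 and edgeR adjusted p = 8.5e-15). Socs1 had 31.2, 25.2 and 31.1 in WT and 456, 667 and 598 in WTL. The dual-specificity phosphatases Dusp14 and Dusp2, of a family that switches off MAP kinases, had log2 fold changes of 4.39 and 3.33. The 2 lower genes were Zfp36l2 and Zfp36l1, which direct the decay of AU-rich mRNAs, at 3762, 3240.4 and 3068 against 882, 853 and 876 and 2159.6, 2001 and 2149 against 609.6, 588 and 724 normalized counts.

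Cell survival and death genes were 12 higher and 3 lower of 30. Bcl2l1 (Bcl-xL), an inhibitor of apoptosis, rose from 415, 395 and 363 to 3706, 4658 and 5172 normalized counts, a log2 fold change of 3.53 (standard error 0.13 and edgeR adjusted p = 2.1e-11). Cflar (c-FLIP), an inhibitor of caspase-8, and Ripk2, the kinase of NOD receptors, had log2 fold changes of 2.73 and 2.87. Bcl2a1d had 2.16, but Bcl2a1a, Bcl2a1b and Bcl2a1d are near-identical and their division of reads is uncertain. Bmf, which promotes apoptosis, fell from 1669, 1696 and 1752 to 227, 245 and 320.0, a log2 fold change of -2.69 (standard error 0.10 and edgeR adjusted p = 2e-11), and Casp9 had a log2 fold change of -1.31.

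Of 30 mitosis genes 9 were lower and 0 higher, with a median log2 fold change of -0.85. Of 30 DNA replication genes 4 were lower (13.3%, near the 9.99% of all genes) and 0 higher, with a median log2 fold change of -0.47. With no fold cutoff, 26 mitosis genes were lower and 0 higher and 23 DNA replication genes were lower and 2 higher, beside 30.2% lower and 30% higher of all genes by the same adjusted p. Kif23, a motor of cell division, fell from 746, 768 and 774 to 303, 239 and 240.3 normalized counts, and Cenpf from 887, 769.9 and 828 to 353, 229 and 175. The replicative helicase subunit Mcm7 fell from 799.6, 870.0 and 862 to 349.9, 366 and 379, a log2 fold change of -1.21 (standard error 0.07 and edgeR adjusted p = 1.7e-09). Mcm2, Pold1 and Uhrf1 had log2 fold changes of -1.11, -1.10 and -1.01, and Kif20a and Hmmr of -1.41 and -1.43.

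Ribosomal protein genes, 78 tested, had 0 calls by edgeR and by DESeq2, with 74 higher and 0 lower at an unadjusted p under 0.05 in both, beside 32% higher and 32.5% lower of all genes by edgeR. At an adjusted p under 0.05 and any fold 70 were higher and 0 lower. Their median log2 fold change was 0.38 and that on log2(TPM + 1) was -0.14, so the sign of the median turned with the scaling. Among 30 lysosome genes 1 was higher and 2 lower. Tfeb, the factor that drives lysosomal genes, fell from 547, 613 and 529.8 to 124, 183 and 178 normalized counts, a log2 fold change of -1.79 (standard error 0.12 and edgeR adjusted p = 9.9e-09). Lipa, the lysosomal acid lipase, had a log2 fold change of -1.26, and Acp5 of 1.22, which was 0.70 on log2(TPM + 1). Of 26 genes of integrins, adhesion and actin bundling 9 were higher, with a median log2 fold change of 0.31 that was -0.14 on log2(TPM + 1). Marcksl1 rose from 1925, 1842 and 1805 to 14759.7, 18174 and 20417 and Fscn1, which bundles actin in the dendrites of mature dendritic cells, from 2315, 2595 and 2652 to 12176, 19316 and 23588, and in both WTL replicate 1 was the lowest WTL library. Vcam1, an adhesion ligand of lymphocytes, rose from 62.5, 65.4 and 45.8 to 371, 343 and 343, and the integrin chain Itgav had a log2 fold change of 2.28.

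The same stimulation was given to CTCF-deficient cells. KOL against KO shares no library with WTL against WT, but both were read from the same fit. Of the 1766 genes higher in WTL, 1411 were higher, 5 lower and 350 not called in KOL against KO, and of the 1400 lower genes 982 were lower, 6 higher and 412 not called. The share of all tested genes called in KOL against KO was not counted, so these numbers have no background beside them. The median log2 fold change was 1.83 in wild-type and 1.85 in CTCF-deficient cells for the higher genes and -1.37 in both for the lower ones. A test of the difference of responses (interaction, edgeR, adjusted p under 0.05) was negative for 1225 (8.75%) and positive for 1218 (8.7%) of all 14008 genes. Among the higher genes it was negative for 248 and positive for 224, and among the lower genes negative for 125 and positive for 160. Both sets were picked by the wild-type response that this test subtracts, so these counts carry that choice.

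**Figure D5:**
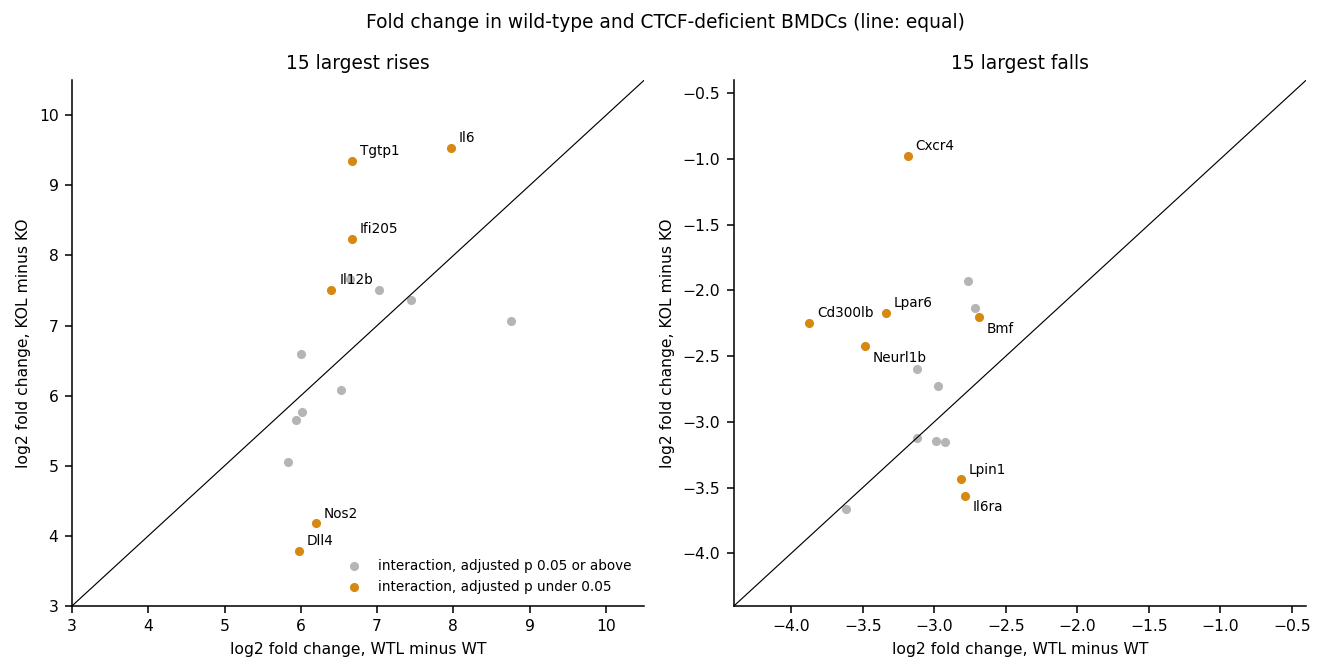
Log2 fold change under LPS in wild-type cells (x axis) and in CTCF-deficient cells (y axis) of the 15 largest rises (left) and 15 largest falls (right), with a line where both are equal. Orange points are the 13 genes whose responses differed at an adjusted p under 0.05, from Dll4 at -2.19 to Tgtp1 at 2.67 (CTCF-deficient minus wild-type).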

How the data were processed

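RNA from BMDCs was sequenced in 12 libraries, 3 in each of WT, WTL, KO and KOL, grouped by the genotype and treatment labels. Per the labels ribosomal RNA was depleted, while the study's methods name a stranded poly(A) kit, and whether strand was used in counting is not given in the sources used here. The authors aligned reads to mm10 and deposited RSEM expected counts and TPM per gene, with STAR 2.5.1 in the submitters' processing notes. Antisense, overlapping and near-identical genes are uncertain for this reason. Gene symbols were matched by identifier for 55154 of 55335 genes, and 105 symbols stood on more than 1 identifier. Library totals were 13058792 to 14518230 in WT and 12769773 to 16586334 in WTL, and intervals cover counting error only.

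Expected counts were rounded, filtered by filterByExpr and scaled by TMM, and all 12 libraries were fitted in edgeR 4.0.16 (quasi-likelihood) with R 4.3.3. Calls needed an adjusted p (Benjamini-Hochberg over 14008 genes) under 0.05 and a fold above 2. Standard errors given beside edgeR values were derived from the test, as the absolute log2 fold change divided by the square root of its F statistic. They rest on a spread estimated over all 12 libraries and not over WT and WTL alone. Alternatives were DESeq2 1.42.0, limma 3.58.1 on log2 TPM with a pseudocount of 1 or 0.1 (TPM of 1 or more in 3 libraries), other filters and scalings, a replicate block, leaving out each library, and TPM on a common median, which was added after the data were seen. Shares of TPM were compared by the exact permutation test (scipy 1.17.1).

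Genes were named as the 15 largest rises and falls (mean of at least 100 normalized counts, no overlap), up to 4 rises and 4 falls in each of 34 lists (mean of at least 50, no overlap), Ctcf, the LPS receptor and adaptors, and the most abundant list members. A gene that this rule names is not reported here. Tnf, Ifnb1, Il10, Gbp5, Tlr11, Tlr12, Hdc, the marker genes named as changed and the genes named in chromosomal runs were chosen after their values were seen. The members and lists were chosen with earlier results of these data known.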

Additional observations from a re-analysis of the deposited data

Results flagged for a closer look

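Among the 15 largest rises and 15 largest falls in wild-type cells, 13 genes had a response to LPS that differed between wild-type and CTCF-deficient cells in the test of the difference itself (edgeR interaction, adjusted p under 0.05, which 17.4% of all genes tested reached in either direction). These genes were picked by the wild-type response that this test subtracts, so the 17.4% is not a matched background for the 13. The differences are given as the log2 response of CTCF-deficient minus that of wild-type cells, with 3 libraries in each of the 4 groups.

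The nitric oxide synthase Nos2 and the Notch ligand Dll4 rose less in CTCF-deficient cells. Nos2 had a log2 fold change of 6.19 in wild-type and 4.18 in CTCF-deficient cells, a difference of -2.02 ± 0.29 (SE, adjusted p = 0.00035). Dll4 had 5.97 and 3.79, a difference of -2.19 ± 0.70 (SE, adjusted p = 0.046). The cytokine genes Il6 and Il12b rose by a larger ratio. Il6 had log2 fold changes of 7.97 and 9.53, a difference of 1.56 ± 0.34 (SE, adjusted p = 0.0062), from a mean of 70.4 normalized counts in WT and 12 in KO to 17726 in WTL and 9024 in KOL. Il12b went from 113 and 24.9 to 9562 and 4546, a difference of 1.11 ± 0.25 (SE, adjusted p = 0.0073). The larger ratios of Il6 and Il12b thus started from lower means in KO and ended at lower means in KOL than in WTL. The interferon-induced genes Tgtp1 and Ifi205 had differences of 2.67 and 1.57, and the division of reads of Tgtp1 with Tgtp2 is uncertain.

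Of the falls, Cd300lb, Neurl1b, Lpar6, Cxcr4 and Bmf had positive differences of 1.62, 1.06, 1.17, 2.21 and 0.48, which is a smaller fall in CTCF-deficient cells. Cxcr4 had a log2 fold change of -3.18 in wild-type and -0.97 in CTCF-deficient cells. Lpin1 and Il6ra had differences of -0.62 and -0.78, a larger fall. The part of the lower Ctcf level, of cell composition or of the levels before LPS in these differences was not tested.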

How the results depend on the processing

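Of 179 fold changes of named genes, all could be computed in each alternative but the strict filter of 10 counts per library, which kept 161. They kept their direction there, with the exception of Ticam1, which was -0.26 on log2(TPM + 1) and -0.28 on log2(TPM + 0.1). Ticam1 also lost an adjusted p under 0.05 without each WT replicate and with no filter, and Stab1 lost it with TPM on a common median (-0.44), whose cause was not tested. With at least 10 counts in every library fewer genes were tested (11325), and 1147 were higher, 892 lower and 48 secreted-protein genes higher. On log2(TPM + 1), where the median of all genes was -0.44, 770 genes were higher, and the lists held 21 higher and 20 lower transcription factors, 7 lower secreted proteins, 33 higher receptors, 36 lower metabolic genes and 5 higher and 43 lower genes of housekeeping and proliferation. On log2(TPM + 0.1) these were 941 higher and 3087 lower genes, 21 and 22 transcription factors, 9 lower secreted proteins, 33 higher and 54 lower receptors, 41 lower metabolic genes and 5 and 44 of housekeeping and proliferation. TPM on a common median gave 531 lower genes and 9 lower of housekeeping and proliferation. With no fold cutoff, 4209 genes were higher and 4224 lower, with 65 and 23 transcription factors, 9 lower secreted proteins, 96 and 65 receptors, 113 and 69 metabolic genes, 11 lower of response control and 94 and 64 of housekeeping and proliferation. Leaving out each library gave 1633 to 1807 higher and 1396 to 1600 lower genes, and 384 to 494 interactions among higher and 206 to 288 among lower genes.

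Replicates of the same number did not deviate together (correlations of -0.01, 0.05 and -0.06 across genes). With so few libraries in a group this cannot settle whether the numbers pair the libraries. With the replicate block 1596 genes were higher and 1344 lower, and no named gene lost an adjusted p under 0.05, while Prdx5 was under the 2-fold cutoff at 0.99. Of 177 named genes called, 15 lost the call on log2(TPM + 1), 14 on log2(TPM + 0.1), 12 with TPM on a common median and at most 4 in any other alternative. Single libraries that ended calls near the cutoff were WT replicate 1 for Hk2 (0.87), WTL replicate 1 for Hk2 (0.96), Uhrf1 (-0.94) and Slc7a11 (0.99), WTL replicate 2 for Nr2c2 (-0.99), Cat (-0.99) and Egr2 (-0.95), and WTL replicate 3 for Nr2c2 (-0.89). Prdx5 was under the cutoff (0.90 to 0.99) without each library except WTL replicate 1. Genes at few counts in WT limit the precision of the largest ratios.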

Other observations

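Other gene families also lay in runs of genes that were all higher in WTL. The 6 protein-coding genes Trim12a, Trim12c, Trim30b, Trim30c, Trim30a and Trim30d stood together on mm10 chr7:104299894-104507849. The guanylate-binding protein genes Gbp5, Gbp7, Gbp3, Gbp2b and Gbp2 formed a run of 5 on chr3:142493978-142638008, and the oligoadenylate synthetase genes Oas2, Oas3, Oas1c, Oas1g and Oas1a another of 5 on chr5:120730333-120907521. A single run of 4 genes was lower, with Ankrd63, Plcb2, Inafm2 and Knstrn on chromosome 2. Members of the Trim30, Gbp and Oas families share sequence, and the division of their reads is uncertain.

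Genes that do not code for proteins changed as well. Of 274 lincRNAs tested 63 were higher and 45 lower, and of 348 antisense genes 73 were higher and 56 lower, beside 12.6% and 9.99% of all genes. Reads of antisense genes may belong to their partner gene, since the strand setting of the counting is not given in the sources used here.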
